A study of Sus scrofa with 6 samples.

Results

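The nucleolus and RNA polymerase I genes described here are FBL, NPM1, NOP56, NOP58, POLR1B, POLR1C, TAF1B, DKC1, GTPBP4 and MYC. They were chosen by symbol, and every probe set that the platform annotation gives to 1 of these 10 symbols was taken, which made 15 of the 23999 probe sets of the array that are not controls, and 10 of the 6765 genes it names. Of these 15, 12 were bright enough to be tested, and each of the 10 genes kept at least 1 tested probe set. In the RefSeq annotation of the pig assembly Sscrofa11.1, POLR1B and TAF1B lie on chromosome 3, MYC on 4, FBL on 6, POLR1C on 7, GTPBP4 on 10, NOP58 on 15, NPM1 on 16, NOP56 on 17 and DKC1 on X.

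RNA of pig nuclear transfer embryos, in which an oocyte receives a somatic nucleus, was hybridised to Affymetrix GeneChips for the pig. There were 2 arrays of embryos injected with an antibody against DJ-1, 2 of embryos injected with IgG, 1 of non-injected embryos and 1 of cultured donor cells. All embryos were taken at 28 h, around the 2-cell stage. The first trial covered all 4 groups, and the second repeated the anti-DJ1 and IgG injections with biologically different samples. Each embryo array pools 23 to 26 embryos made with slaughterhouse oocytes, and the donor cells are labelled as fibroblasts established from 1 adult Meishan pig. No embryo was genetically altered as far as the labels say, and in both trials IgG embryos are the controls. With 2 arrays at most in a group, p-values rest on little spread of their own. The trial is a term of the fit, so that spread is only how far the anti-DJ1 minus IgG differences of the 2 trials disagree. Differences between the trials are taken out, and most of the spread used is borrowed from other probe sets. The single non-injected and donor cell arrays add none.

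The nucleolus is where RNA polymerase I transcribes the ribosomal RNA precursor and where that RNA is modified, cut and packed with proteins into ribosomal subunits. Oocytes carry a store of ribosomes, and in early mammalian embryos the nucleolus is first a compact body with little ribosomal RNA synthesis, which resumes around the activation of the embryonic genome. In a transferred nucleus the active nucleolus of the somatic cell is taken apart and has to be rebuilt. Transcripts found at the 2-cell stage can be maternal, carried over from the donor cell or newly made, and the array does not separate these.

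Values are linear signals of the MAS5 summary method, whose trimmed mean was 500.1 to 500.2 on each of the 6 arrays. The background of each array was taken as its highest Tag control, a probe set with no pig target, and lay between 21.4 and 47.0. Of the 9 oocyte markers on the array, 9 stood above this background on every embryo array and 3 on the donor cell array, with summed signals of 85629.6 to 138147 in embryos and 218 in donor cells. The 17 fibroblast markers summed to 3763 to 4535 in embryos and 99419 in donor cells, where FN1, VIM, SPARC and THY1 were bright. In donor cells DCN, LUM and POSTN lay under the background. Of the 17, 11 to 14 stood above the background on an embryo array and 14 on the donor array. PDGFRB and DCN stood above it on every embryo array and were brighter on each of these than in donor cells. The 6 epithelial markers summed to 7674 to 9241 in embryos and 19601 in donor cells. Their keratins KRT8 (9907), KRT18 (2103) and KRT19 (3598) were brighter in donor cells than on any embryo array, while EPCAM (3734 to 5574 in embryos, 3128 in donor cells) and CDH1 (3057 to 3694 in embryos, 749 in donor cells) were brighter in embryos. Summed signals of the 12 cumulus and granulosa markers were 1626 to 2101 in embryos and 3108 in donor cells, with 3 to 6 of the 12 above the background on an embryo array and 3 on the donor array. INHA and INHBA were above it on all 6 arrays and FST on 5, while FSHR, CYP11A1, STAR, TNFAIP6, PTX3 and AMH were under it on all 6. Endothelial markers summed to 1435 to 2167 in embryos and 194 in donor cells, and blood markers to 1066 to 2111 in embryos and 982 in donor cells. In embryos most of these sums came from TEK (1239 to 1763) and HBB (982 to 2045). PECAM1 was above the background on 6 arrays, VWF on 5, KDR on 1 and CDH5 on 0. PTPRC and CD3E were above it on 2 arrays each and CD14 on 1.

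**Figure D1:**
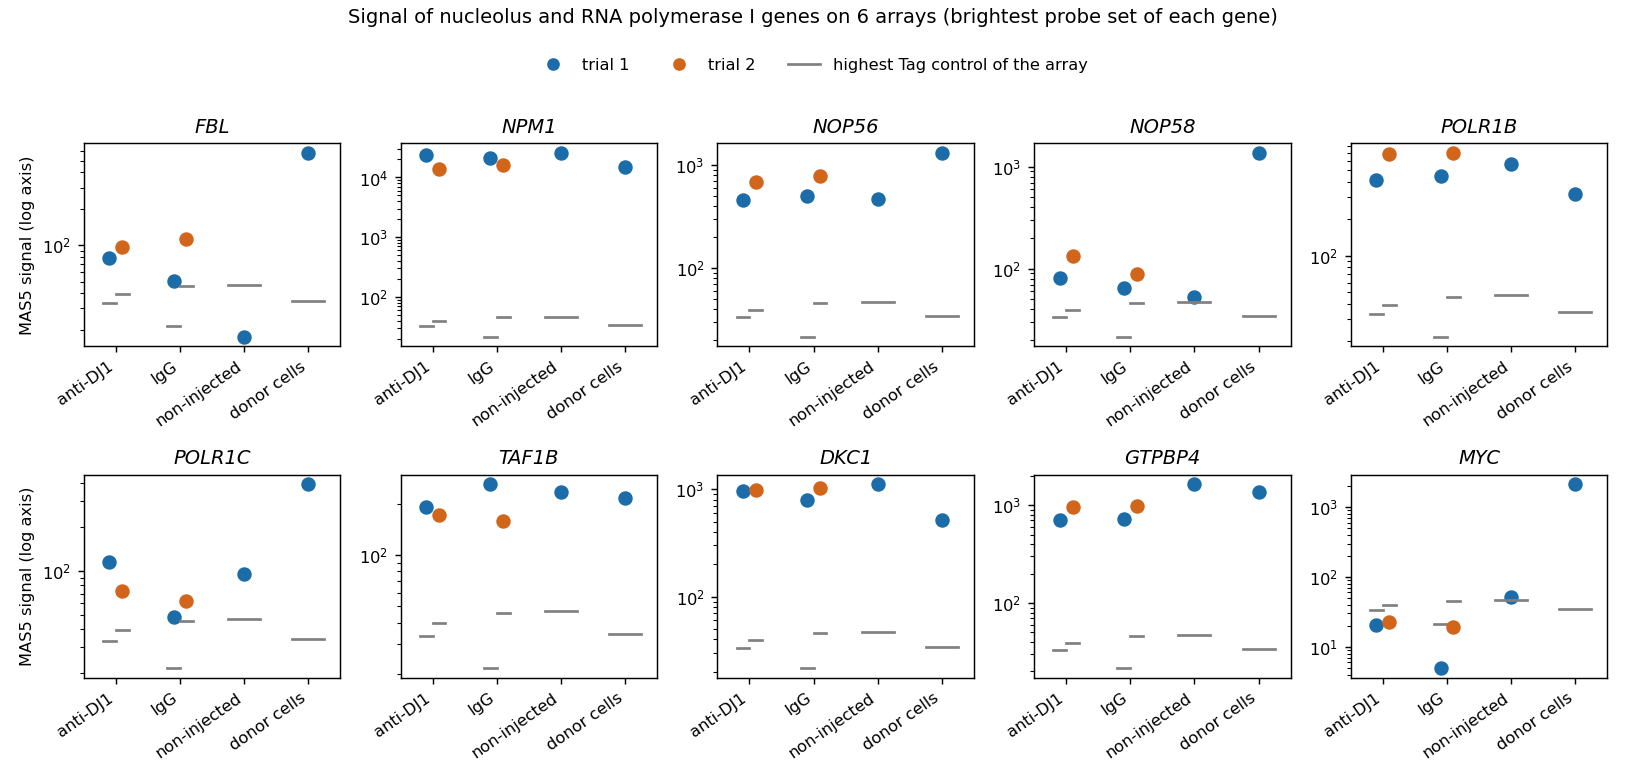
MAS5 signal (log axis, own scale in each panel) of the brightest probe set of each of the 10 genes in the 3 embryo groups (anti-DJ1, IgG, non-injected) and in the donor cells, with 1 point per array coloured by trial and grey bars at the highest Tag control of each array. Donor cells stand above all embryo arrays for FBL, NOP56, NOP58, POLR1C and MYC and below them for POLR1B and DKC1, and the non-injected array is the highest embryo array for GTPBP4 and the lowest for FBL.

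The comparison of transfer embryos with the donor cells asks how far the nucleolar transcripts of the embryo differ from those of the cell that gave the nucleus. MYC and the box C/D proteins FBL, NOP56 and NOP58 were lower in embryos, as were POLR1C and GTPBP4, while NPM1, POLR1B and 1 of the 2 DKC1 probe sets were higher. In limma, with Benjamini-Hochberg adjustment over all 14399 tested probe sets and a threshold of 0.05, 9 of the 12 probe sets passed, 3 higher and 6 lower in embryos. The embryo arrays all lay below the donor cells for 6 of the 12 and all above for 3. Of all tested probe sets, 72.9% passed, 36.4% higher and 36.5% lower, and 39.4% and 40.9% had all embryo arrays below or above the donor cells, so the members passed at a share close to that of the array. With 1 injected array left out, which needs a fit without the trial, fewer of the 12 and fewer of all tested probe sets passed. The changes then ran from -6.02 to -6.47 for MYC and from 0.34 to 0.61 for NPM1. Since RNA was pooled, fewer cells with a transcript and less of it per cell cannot be told apart, and the common scaling makes each value a share of its array. The median log2 change was -0.68 over the 12 probe sets and -0.025 over all tested probe sets. EF1A, a control read at both ends of its RNA, had a 3′ over 5′ ratio of 8.20 to 29.95 in embryos and 4.23 in donor cells, and its part in these differences was not tested.

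MYC, the transcription factor that raises RNA polymerase I activity and ribosome production in growing cells, differed most. Its signals were 20.4 and 22.9 in anti-DJ1 embryos, 4.89 and 19.5 in IgG embryos, 52.5 in non-injected embryos, next to 2138 in the donor cells. All 4 injected arrays lay under their own highest Tag control, and the non-injected array lay just above its own, at 47.0. Against donor cells MYC was therefore at least 59.0-fold lower in anti-DJ1 and at least 68.4-fold lower in IgG embryos, where each array counts at its highest Tag signal. The fitted log2 change, on log2(signal + 4.57), was -6.49 ± 0.60 (SE, adjusted p = 7.92e-07, limma). The name of this probe set ends in _s_at, which the array maker gives to probe sets that can match more than 1 transcript.

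Box C/D particles are guided by small nucleolar RNAs to methylate ribosomal RNA, with fibrillarin (FBL) as the enzyme and the related proteins NOP56 and NOP58 as the scaffold. NOP58 had signals of 81.3 and 134 in anti-DJ1, 64.1 and 88.7 in IgG and 52.8 in non-injected embryos, against 1376 in donor cells. All embryo arrays lay far below the donor cell array, by a fitted log2 change of -4.31 ± 0.32 (adjusted p = 1.01e-07). FBL had 78.7 and 96.2 in anti-DJ1, 50.2 and 113 in IgG and 17.4 in non-injected embryos, against 584 in donor cells, a change of -3.66 ± 0.41 (4.74e-06). Its non-injected value lay under the background, so that it was at least 12.4-fold lower there than in donor cells. NOP56 differed less, with 459.9 and 696 in anti-DJ1, 500.2 and 783 in IgG and 468 in non-injected embryos, against 1329 in donor cells. Its change was -1.47 ± 0.18 (1.02e-05), and the groups did not overlap.

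The H/ACA particles, which turn uridine into pseudouridine, have dyskerin (DKC1) as their enzyme. Its brighter probe set read 976 and 995 in anti-DJ1, 797 and 1028 in IgG and 1119 in non-injected embryos, against 521 in donor cells. This was a rise of 0.87 ± 0.18 (adjusted p = 7.21e-04, limma). The dimmer DKC1 probe set read 801 and 744, 623 and 872, and 723 in the same embryo groups and 549.9 in donor cells. All embryo arrays again stood above the donor cells, and at 0.37 ± 0.20 this probe set did not pass (0.118). It passed when arrays were scaled to a common 75th percentile (1.0001) or by quantiles (0.87).

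RNA polymerase I itself was represented by POLR1B, a large subunit that forms part of its catalytic centre, by POLR1C, a small subunit shared with RNA polymerase III, and by TAF1B, part of the selectivity factor that brings the polymerase to the ribosomal RNA promoter. POLR1B read 418 and 683 in anti-DJ1, 446 and 700.3 in IgG and 563 in non-injected embryos, against 319.9 in donor cells. It was higher by 0.55 ± 0.19 (adjusted p = 0.0212, limma), and without the non-injected array by 0.43, which did not pass (0.0844). Nor did it pass without the block for the trial (0.188) or without the mean-variance trend of the fit (0.0735). POLR1C went the other way, with 115 and 73.1 in anti-DJ1, 48.3 and 62.2 in IgG and 94.97 in non-injected embryos, against 394 in donor cells, a change of -2.22 ± 0.40 (2.79e-04). The 2 polymerase subunits thus stood on opposite sides of the donor cells. The brightest TAF1B probe set read 192 and 173 in anti-DJ1, 262 and 158 in IgG and 235 in non-injected embryos, next to 217 in the donor cells, within the embryo range. Its change of 0.066 had a confidence interval of -0.54 to 0.67 (0.843), and it passed as higher under both other scalings (0.69 with a common 75th percentile, 0.82 by quantiles).

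A further tested TAF1B probe set read 83.3 and 126 in anti-DJ1, 104 and 131 in IgG and 50.6 in non-injected embryos, next to 138 in the donor cells. All embryo arrays lay below the donor cells, but the change of -0.82 ± 0.37 did not pass (adjusted p = 0.0622, limma). Without the mean-variance trend it passed (0.0343). The remaining pair of TAF1B probe sets and the dimmer POLR1B probe set were not tested. They stood between 1.36 and 39.2 on all arrays, and only 1 of their 18 values, 39.2 for TAF1B in IgG embryos of trial 1, was above the array's background.

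NPM1, or nucleophosmin, is an abundant chaperone of the granular part of the nucleolus that helps assemble ribosomal subunits. Its signals were 23964 and 13756 in anti-DJ1, 20938 and 16456.5 in IgG and 26004 in non-injected embryos, against 14851 in donor cells. The anti-DJ1 array of trial 2 lay below the donor cells and the other 4 embryo arrays above them. The fit gave a rise of 0.66 ± 0.13 (adjusted p = 5.57e-04, limma), which did not pass with quantile normalization (0.23, adjusted p = 0.0760), without the block for the trial (0.47, adjusted p = 0.354) or without the mean-variance trend (adjusted p = 0.0781).

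GTPBP4 is a GTPase of the nucleolus that acts on the precursor of the large ribosomal subunit. It read 708 and 966 in anti-DJ1, 722 and 984 in IgG and 1644 in non-injected embryos, next to 1382 in the donor cells. The donor cells lay between the injected and the non-injected embryos. Over the 3 embryo groups together the fitted change was -0.55 ± 0.16 (adjusted p = 0.00870, limma), without the non-injected array -0.95 (adjusted p = 4.07e-04), and with a common 75th percentile 0.085, of the opposite sign and not called (0.652). It did not pass without the block for the trial (0.384) or without the mean-variance trend (0.0749).

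The scaling of the arrays moves all changes in this comparison. The median log2 change of all tested probe sets was -0.025 as reported, 0.42 with quantile normalization and 0.59 with a common 75th percentile. The share of calls that were higher in embryos was 49.98% as reported and 63.2% with the common 75th percentile, where 5 of the 12 probe sets were called higher and 5 lower. MYC, NOP58, FBL, NOP56 and POLR1C were called lower, and the brighter DKC1 probe set and POLR1B higher, under all 3 scalings.

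**Figure D2:**
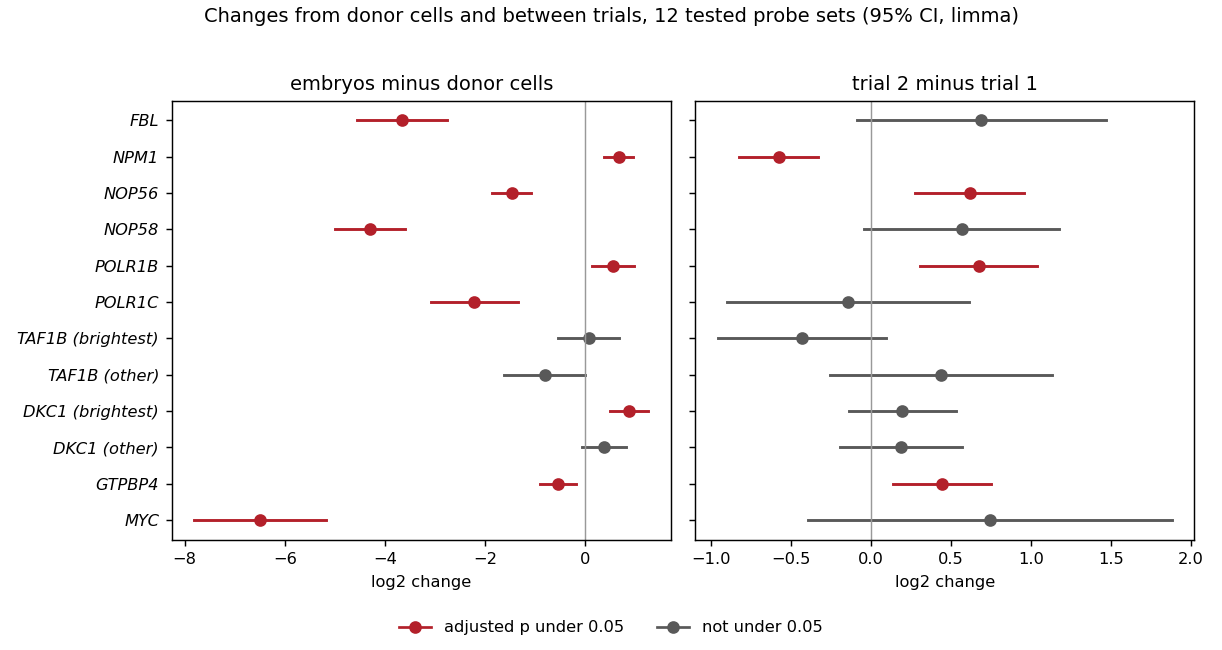
Log2 change (x axis) of the 12 tested probe sets, 1 row each, in embryos minus donor cells (left) and in trial 2 minus trial 1 (right), with 95% confidence intervals from limma. Red marks an adjusted p under 0.05: on the left MYC, NOP58, FBL, POLR1C, NOP56 and GTPBP4 are lower and DKC1, NPM1 and POLR1B higher, on the right NOP56, POLR1B and GTPBP4 are higher and NPM1 lower.

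Setting anti-DJ1 against IgG embryos asks whether the antibody against DJ-1 went with a change in these transcripts beyond that of an injected control antibody. None of the 12 probe sets passed in limma, where 0% of all 14399 passed, and 0 of the 12 and 838 of the 14399 had an unadjusted p under 0.05. The estimates were 6 higher and 6 lower, with a median of 0.019 against -0.0054 over all tested probe sets. GTPBP4 and POLR1B lay closest together in the 2 groups of each trial. For GTPBP4 the change was -0.028, with -0.029 in trial 1 and -0.026 in trial 2, and its confidence interval ran from -0.33 to 0.28. For POLR1B it was -0.064, with -0.092 in trial 1 and -0.036 in trial 2, and an interval of -0.43 to 0.30. NPM1 stood at -0.032 with an interval of -0.28 to 0.21, and its trials had opposite signs, 0.19 and -0.26.

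Wider intervals belonged to the dim genes. The mean POLR1C signal was 94.0 ± 29.5 with the antibody and 55.2 ± 9.83 with IgG (SD, n = 2 each), with a fitted difference of 0.70 ± 0.35 (SE, adjusted p = 0.884, limma). Trial 1 alone gave 1.18 and trial 2 gave 0.22. The interval reached from -0.057 to 1.45. The mean NOP58 signal was 108 ± 37.5 with the antibody and 76.4 ± 17.4 with IgG (SD, n = 2 each), a difference of 0.45 ± 0.28 (adjusted p = 0.918, limma). Trial 1 gave 0.32 and trial 2 gave 0.58. It was higher with the antibody in both trials, within an interval of -0.16 to 1.06. For MYC the estimate of 0.80 ± 0.52 (adjusted p = 0.924, limma) compares values that all lie under the background. FBL was at 0.19 (interval -0.59 to 0.97), NOP56 at -0.15 (-0.49 to 0.20), the 2 DKC1 probe sets at 0.12 and 0.065, and the 2 TAF1B probe sets at -0.16 and -0.18.

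The comparisons with non-injected embryos ask what the injection itself did, and they share the 1 non-injected array. GTPBP4 was lower in injected embryos of both kinds and was the only 1 of the 12 probe sets to pass. It read 708 and 966 in anti-DJ1 and 722 and 984 in IgG embryos, against 1644 in non-injected embryos, and the groups did not overlap. The log2 change was -1.21 ± 0.19 for anti-DJ1 (adjusted p = 0.0120, limma) and -1.18 ± 0.19 for IgG embryos (0.0154). Of all tested probe sets, 1.92% passed for anti-DJ1 (1.26% higher, 0.653% lower) and 1.26% for IgG embryos (0.917% higher, 0.347% lower).

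Within trial 1 alone the GTPBP4 differences were -1.21 for anti-DJ1 and -1.18 for IgG embryos, and the arrays of trial 2 stood -0.76 and -0.74 from the non-injected array of trial 1. Without the block for the trial the changes were -0.99 and -0.96 and did not pass (adjusted p = 0.996 for anti-DJ1 and 0.994 for IgG embryos), and without the mean-variance trend they did not pass either (0.277 and 0.295). With 1 injected array left out, the fit without the block called no member. The non-injected array also had an EF1A 3′ over 5′ signal ratio of 29.95, against 24.2 for anti-DJ1 and 23.9 for IgG in trial 1. Its median hybridisation control signal was 6521 against 3223 and 3051. Its summed oocyte marker signal was the highest, 138147 against 85629.6 to 108802 on the injected arrays. Single oocyte markers differed in this: KPNA7, WEE2 and H1FOO were highest on the non-injected array. Among embryo arrays ZP3, ZP4, GDF9 and BMP15 were lowest on it, and ZP2 and PADI6 lay between. The part of these array differences in the GTPBP4 difference was not tested.

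FBL and MYC had larger estimates that did not pass. FBL stood higher in all 4 injected arrays than in the non-injected one, with a fitted change of 1.72 ± 0.47 for anti-DJ1 (adjusted p = 0.0824, limma) and 1.53 ± 0.47 for IgG embryos (0.123). Since the non-injected value of 17.4 lay under its array's background, the signals put it at least 1.85-fold higher in anti-DJ1 and at least 1.603-fold higher in IgG embryos. MYC stood lower in all 4 injected arrays, at -1.49 (0.273) for anti-DJ1 and -2.29 (0.114) for IgG embryos, and its bounds were at least 1.45-fold and 1.68-fold lower. Counting single arrays, 4 of the 12 probe sets had all 4 injected arrays below the non-injected one and 3 had all 4 above, where 19.9% and 26.3% of all tested probe sets did so.

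For the other genes the changes from the non-injected array ran from -0.41 (POLR1B) to 0.73 (the dimmer TAF1B probe set) in anti-DJ1 embryos and from -0.67 (POLR1C) to 0.91 (the same TAF1B probe set) in IgG embryos. NOP56 was at -0.037 (interval -0.49 to 0.41) with anti-DJ1 and 0.11 (-0.34 to 0.56) with IgG. Over all tested probe sets the median confidence interval, not adjusted for the number of tests, reached 1.59-fold to either side. The adjusted threshold asks for more, so changes well above 1.59-fold could also go undetected with these arrays. Among the dim genes, FBL was fitted 3.29-fold higher in anti-DJ1 and MYC 4.89-fold lower in IgG embryos, and neither passed.

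**Figure D3:**
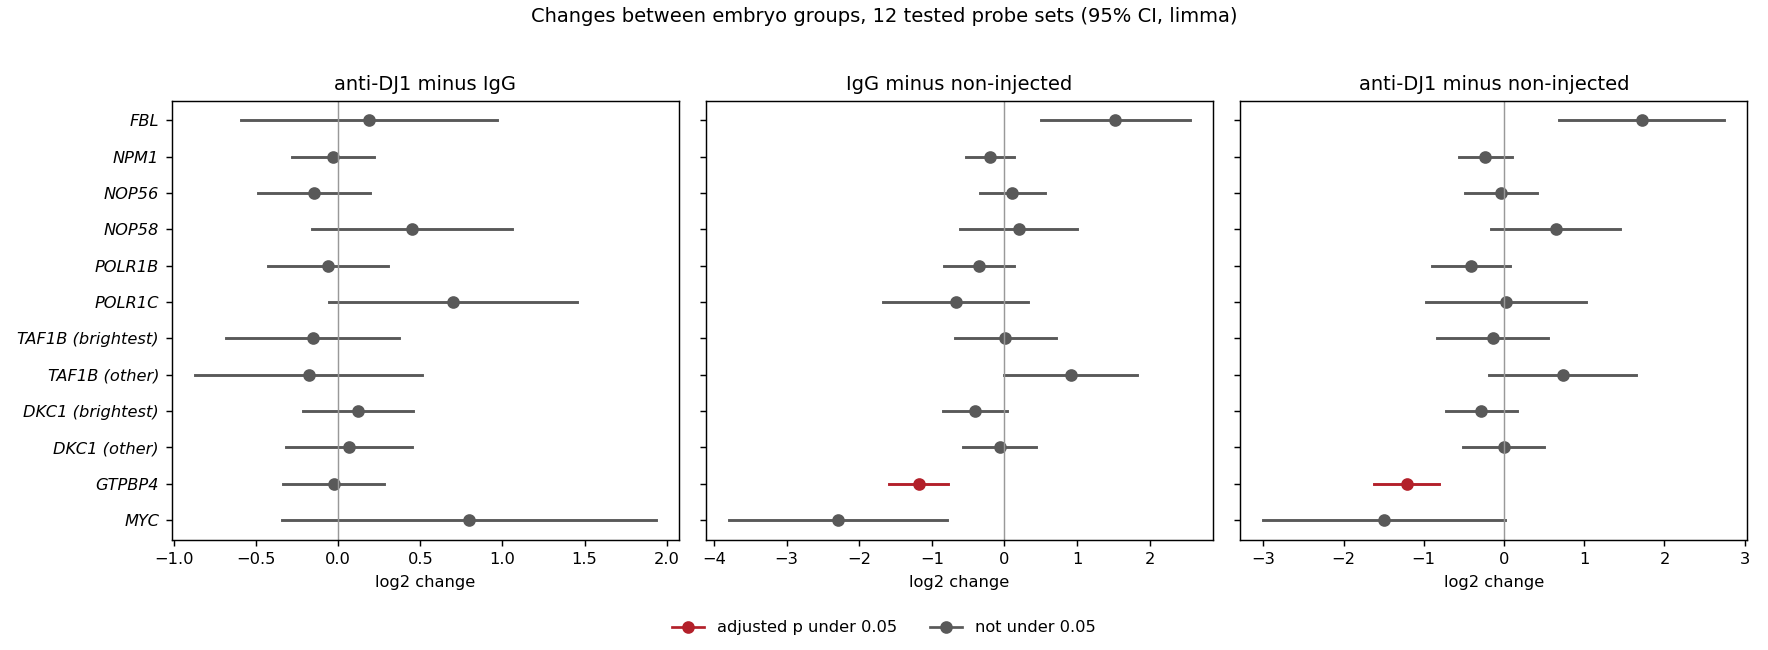
Log2 change (x axis, own scale in each panel) of the 12 tested probe sets, 1 row each, in anti-DJ1 minus IgG, IgG minus non-injected and anti-DJ1 minus non-injected embryos, with 95% confidence intervals from limma. GTPBP4, in red, is the only probe set with an adjusted p under 0.05, at -1.18 and -1.21 in the 2 comparisons with the non-injected array and at -0.028 between anti-DJ1 and IgG embryos.

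The genes whose pattern over the 6 arrays was most like that of GTPBP4, among 5217 other tested genes, were NPC2 (Pearson r = 0.956), NR5A2 (r = 0.955) and UNC13D (r = 0.937), as a description over 6 arrays that share trials and scaling. NR5A2 was dim in injected embryos, at 20.4 and 46.4 in anti-DJ1 and 26.5 and 38.1 in IgG embryos. Of these values, 20.4 and 38.1 lay under the background of their arrays. NPC2 read 176 and 247 in anti-DJ1, 188 and 256 in IgG and 360.2 in non-injected embryos, next to 415 in the donor cells. Like GTPBP4, it was higher in trial 2 than in trial 1 and highest among embryos on the non-injected array. Unlike GTPBP4, its donor cell value was the highest of all 6.

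Many probe sets differed between the 2 trials. In the injected embryos NOP56 was higher in trial 2 by 0.62 ± 0.16 (adjusted p = 0.0102, limma), POLR1B by 0.67 ± 0.17 (0.00937) and GTPBP4 by 0.45 ± 0.14 (0.0295), while NPM1 fell by 0.57 ± 0.11 (0.00251). Each moved the same way in anti-DJ1 and in IgG embryos: NOP56 by 0.59 and 0.64, POLR1B by 0.70 and 0.65, GTPBP4 by 0.45 and 0.44, and NPM1 by -0.80 and -0.35. These are 4 of 12 probe sets, where 32.3% of all tested probe sets passed, 18.9% higher and 13.4% lower in trial 2.

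The trial differences depend on the scaling. The median of all tested probe sets was 0.14 as reported, -0.0040 with quantile normalization and -0.095 with a common 75th percentile, and the share of calls that were higher in trial 2 was 58.7%, 47.2% and 34.1%. NOP56, POLR1B and GTPBP4 kept their sign and did not pass under either other scaling, and NPM1 was at 0.059 with quantile normalization. The brightest TAF1B probe set passed as lower with a common 75th percentile (-0.67, adjusted p = 0.0459, limma). Without the mean-variance trend 0 of the 12 passed. The EF1A ratio of 3′ over 5′ also differed, at 8.20 for anti-DJ1 and 9.34 for IgG in trial 2, against 24.2 and 23.9 in trial 1. Its part in these differences was not tested.

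Other genes of the same pathway were taken from 8 lists with 194 symbols, of which 108 were on the array and 99 were tested, each by its brightest probe set. Between anti-DJ1 and IgG embryos 0 of 99 passed in limma, and between IgG and non-injected embryos 0 of 99, against 0% and 1.23% of all 5218 genes tested this way. Between anti-DJ1 and non-injected embryos 2 passed, 1 higher and 1 lower, against 1.15% and 0.69% of all genes (1.84% together). KRR1, a factor of the small subunit processome, rose with 991 and 995 in anti-DJ1 and 507 in non-injected embryos, by 1.02 ± 0.22 (adjusted p = 0.0436, limma). NGDN, a further processome factor, fell with 19403 and 13341 in anti-DJ1 and 30938 in non-injected embryos, by 0.74 ± 0.14 (0.0261), and its second probe set was at 0.13. In IgG embryos KRR1 read 944 and 810.4, a change of 0.83 (0.0843), and NGDN was at -0.60 (0.0591). Both calls were lost with quantile normalization, without the block for the trial and without the mean-variance trend. With a common 75th percentile 1 of the 99 genes passed as lower between IgG and non-injected embryos.

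Against donor cells, 34 of the 99 genes were higher and 41 lower in embryos, where 35.3% and 41.5% of all genes were (76.7% together), so the pathway counts are near the background. The split turned round with the scaling, to 45 higher and 30 lower with quantile normalization and 49 higher and 25 lower with a common 75th percentile. Calls over all tested probe sets moved the same way, from 5248 higher and 5253 lower as reported. They were 6256 and 4221 with quantile normalization and 6706 and 3911 with a common 75th percentile. As reported, the median of the 99 genes was 0.0026 against -0.20 over all genes. Nucleolar structure genes and regulators had 7 higher and 3 lower of 11, with NAT10, the acetyltransferase of ribosomal RNA, at 4.57 ± 0.15, NPM3 at 2.39 and LYAR at 4.45, whose dimmer probe set was at 0.39. RNA polymerase I subunits had 4 higher and 2 lower of 7, with POLR1E at 3.09 ± 0.17, POLR2E, a subunit shared by all nuclear RNA polymerases, at 1.19 and TWISTNB at 2.09. The dimmer TWISTNB probe set went the other way, at -4.16 (adjusted p = 3.33e-07, limma), so this gene has no settled direction. Small subunit factors had 12 higher and 9 lower of 27. The smallest p-values among them belonged to NGDN at 3.89, whose other probe set was at 5.71, LTV1 at 3.31 and UTP11 at 2.65.

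In the remaining groups lower transcripts outnumbered higher ones as reported, but not under every scaling. Large subunit assembly genes had 6 higher and 14 lower of 30, with NSA2 at -2.82, DDX21 at 1.78 and RSL1D1 at 3.62, where a second RSL1D1 probe set was at 0.32. Exosome genes had 1 higher and 5 lower of 8, with the nuclease XRN2 at -1.49 and C1D at -1.03. The higher one was EXOSC1 at 2.08, whose dimmer probe set was called the other way, at -2.25 (adjusted p = 6.31e-05, limma). The list of particle proteins and their assembly factors had 2 higher and 4 lower of 8. NHP2, a partner of dyskerin, was at -4.80 ± 0.40, with 38.3 and 51.7 in anti-DJ1, 40.03 and 53.2 in IgG and 51.5 in non-injected embryos against 1319 in donor cells, but its dimmer probe set was at 0.14. GAR1, a further partner of dyskerin, was at 2.07. TAF9 was at 1.44 by its brightest probe set and at -1.42 by the other, both past the threshold. Of the 2 initiation and termination factors, TAF1D, a partner of TAF1B, was lower at -2.89 ± 0.37 and TTF1 was at 0.39 (adjusted p = 0.134, limma), with its other probe set at -1.22 (0.192). The MYC network had 2 higher and 3 lower of 6, with the MYC antagonist MXI1 at 0.94, MXD4 at -1.42 and FBXW7, which marks MYC for degradation, at -1.22. With a common 75th percentile the large subunit genes had 13 higher and 10 lower. The particle list, the exosome genes and the MYC network each had 3 higher and 2 lower. With quantile normalization the large subunit genes had 11 higher and 10 lower, the particle list and the exosome genes each 3 higher and 4 lower, and the MYC network 3 and 3. Under both, the initiation and termination factors had 1 higher and 1 lower. With a common 75th percentile the medians of the particle list (0.086), the large subunit genes (0.20) and the MYC network (0.43) were positive, where the median of all genes was 0.42. With quantile normalization the large subunit genes (0.064) and the MYC network (0.15) were positive too, at a median of 0.19 over all genes.

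**Figure D4:**
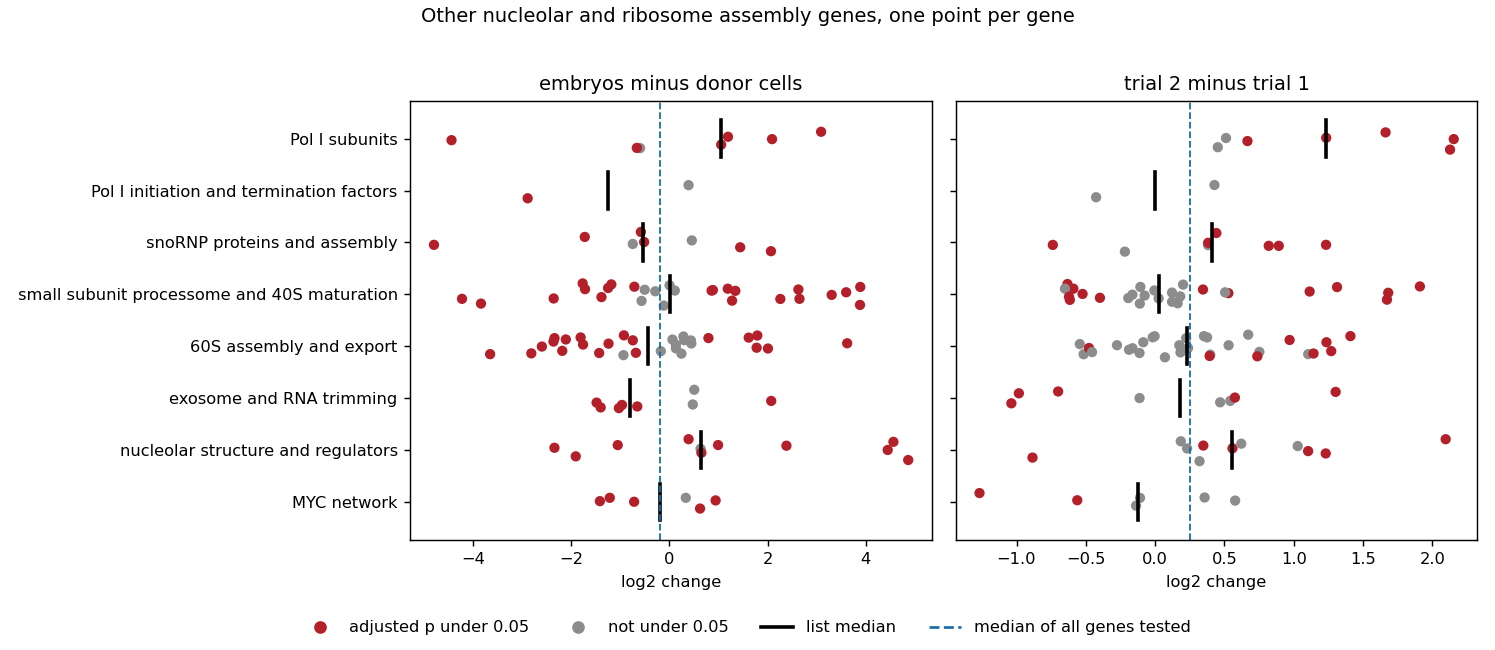
Log2 change (x axis, own scale in each panel) of the tested genes of 8 pathway lists, 1 point per gene, in embryos minus donor cells (left) and trial 2 minus trial 1 (right), with black bars at list medians and a dashed line at the median of all genes tested (-0.20 and 0.25). Red points have an adjusted p under 0.05, and on the right all 7 listed RNA polymerase I subunits, without POLR1B and POLR1C, lie above 0.

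Between the trials, 5 of 7 listed RNA polymerase I subunits passed as higher in trial 2 and 7 of 7 were positive, with a median of 1.23. The list leaves out the members POLR1B, at 0.67, and POLR1C, at -0.14. TWISTNB was at 0.51 by its brightest probe set and at -0.73 by its other, and neither passed. Of all genes 38.5% passed, 26.4% as higher, and the median of all genes was 0.25. POLR1D, shared with RNA polymerase III, read 3184 in anti-DJ1 and 3352 in IgG embryos of trial 2, against 725 and 735 in trial 1. It rose by 2.15 ± 0.14 (adjusted p = 7.08e-06, limma), POLR2E by 1.66 ± 0.13 and POLR1E by 1.23 ± 0.15. Under the other scalings 4 of 7 passed as higher and 7 of 7 stayed positive. The median was 1.11 with quantile normalization and 0.99 with a common 75th percentile, where the medians of all genes were 0.12 and 0.010. Of all 99 pathway genes, 31 were higher and 14 lower in trial 2, and with a common 75th percentile 19 and 22. Of all 14399 tested probe sets, 2728 were higher and 1923 lower as reported. These counts were 1957 and 2186 with quantile normalization and 1657 and 3203 with a common 75th percentile. Among the smallest p-values of the other lists were those of BYSL (1.68, with its other probe set at 2.29) and IMP3 (1.31) of the small subunit, RPF1 (1.41), EIF6 (1.27) and WDR12 (1.24) of the large subunit, NOL12 (2.10) and, in the other direction, C1D (-1.04), EXOSC1 (-0.98), FBXW7 (-1.27) and LYAR (-0.88). The other probe sets of these genes did not all follow: EXOSC1 was at 0.91, LYAR at -0.057 and FBXW7 at -0.74, -0.089 and 0.16. The 3′ over 5′ ratios given above for the 2 trials apply to these genes as well.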

How the data were processed

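The deposited table holds 1 linear intensity per probe set and array, from RNA amplified from 50 ng of total RNA by two-cycle labelling per the labels' protocols. MAS5 is named in the submitters' processing notes, with no version, scaling target or detection call in the sources used here. Of 24123 probe sets, 124 controls were left out of the tests. Probe sets were named through the platform annotation, which can be old: 10069 had 1 symbol, 198 several and 13732 none. All 10 member symbols are current in the RefSeq table.

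The tests ran on log2(signal + 4.57), the offset being the 10th percentile over all arrays, so fold changes of dim probe sets are understated. The upper 60% of probe sets by mean log2 value were tested (14399, mean signal above 39.6). The planned rule said mean signal, which can also be read as the arithmetic mean, and the choice between these was made after call counts under both had been seen (182 and 67 between IgG and non-injected embryos). The test was limma (version 3.58.1, R 4.3.3; lmFit, eBayes with trend) with group and trial as terms on all 6 arrays, two-sided, Benjamini-Hochberg over all tested probe sets. Only 1 residual degree of freedom remained, to which moderation added 10.7, and single arrays (non-injected, donor) were assumed to vary like the replicated groups. The contrast with donor cells took the mean of the 3 embryo groups. The fit was also run on simulated data with large known changes in the anti-DJ1 arrays only. That run scored anti-DJ1 minus IgG and did not test the comparisons with the single arrays.

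The trial was kept as a block because, per the design text, anti-DJ1 embryos had their IgG controls in the same trial. Over the tested probe sets the deviations of same-trial anti-DJ1 and IgG arrays correlated at r = 0.588. Arrays limit the precision by their small number. The brightest probe set stands for a gene. From the pathway lists, every gene that passed between embryo groups was named, and for the donor cell comparison up to 3 per list with the smallest p. Those named for the trials were picked by p after their values were seen. Members, lists and tests were chosen with earlier results of these data known.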

Additional observations from a re-analysis of the deposited data

How the results depend on the processing

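The comparisons rest on 6 arrays and 1 residual degree of freedom, and on single non-injected and donor cell arrays, and dim genes (MYC, FBL, NOP58, POLR1C) lie close to the background in embryos. Of 592 values of single member probe sets under other settings, 549 kept direction and side of the threshold, 22 no longer passed, 6 newly passed and 15 changed sign. The cause of these changes was not tested.

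No replicate block for the trial, the other fit of the paired design, left 0 of 182 calls between IgG and non-injected and 0 of 276 between anti-DJ1 and non-injected embryos, and 0 member calls in both. Under it TAF1B between IgG and non-injected embryos was at -0.20, the dimmer DKC1 probe set at 0.027 with IgG and 0.092 with anti-DJ1, NOP56 at 0.27 and POLR1C at -0.047 with anti-DJ1, and TAF1B at -0.077 against donor cells. Without the mean-variance trend 0 probe sets passed in the embryo comparisons and between trials, members included.

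Calls between IgG and non-injected embryos numbered 312 with a common 75th percentile, 494 with a pseudocount at the 25th percentile, 48 with no filter on low values, 726 with the upper 40% of probe sets (8 of the 12 member probe sets tested), 363 without the donor cell array and 67 with the filter on arithmetic means, an alternative chosen after seeing the data. Between anti-DJ1 and non-injected embryos they numbered 466, 624, 71, 878, 441 and 148 under the same settings. Between anti-DJ1 and IgG embryos they numbered 1 with quantile normalization, 1 with the common 75th percentile, 4 with the larger pseudocount, 43 with the upper 40% and 2 without the donor cell array, none of them a member. Leaving the non-injected array out, also chosen after seeing the data, is given with the genes it changed.

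Quantile normalization turned NPM1 to 0.032 between anti-DJ1 and IgG embryos, 0.12 (anti-DJ1) and 0.085 (IgG) against non-injected embryos and 0.059 between trials, and TAF1B to -0.034 between IgG and non-injected embryos. The common 75th percentile turned that TAF1B value to -0.0077, GTPBP4 against donor cells to 0.085 and the DKC1 probe sets between trials to -0.049 and -0.058. Member calls between trials were 0 with quantile normalization and 2 with the common 75th percentile.

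Leaving out 1 injected array needs a fit without the block, since the blocked fit then has no residual degree of freedom. Calls were then 0 to 0 between IgG and non-injected and 0 to 1 between anti-DJ1 and non-injected embryos, with 0 to 0 members, and 4 to 5 members against donor cells. MYC, NOP58, FBL and POLR1C passed against donor cells in each of these fits. With the trial kept, 212 of 240 member values moved by less than the SD within the injected groups. That SD includes the difference between the trials, so it is a wide measure for genes that differ between them.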

Other observations

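The array also carries control probe sets for ribosomal RNA, the product of the nucleolus, which were left out of all tests and are given as values. How far their signals after two-cycle labelling follow the amount of ribosomal RNA was not tested. One 18S probe set read 5484 and 7026 in anti-DJ1, 4237 and 9171 in IgG and 3296 in non-injected embryos, against 1194 in donor cells. A second 18S probe set read 463 and 249 in anti-DJ1, 376 and 238 in IgG and 469 in non-injected embryos, against 978 in donor cells. The 18S pair thus stood on opposite sides of the donor cells and of the trials. A 28S probe set read 12179 and 10438 in anti-DJ1, 10719.9 and 11641 in IgG and 12350 in non-injected embryos, against 6742 in donor cells, and a further 28S probe set was also higher on all 5 embryo arrays (14026 to 17953) than in donor cells (4586). The 5S probe set, whose RNA is made by RNA polymerase III outside the nucleolus, read 81.2 to 111 in embryos and 15.6 in donor cells.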
